A study of Mus musculus with 6 samples.

Results

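Transcription factor genes of the kidney tubule, Hnf4a, Hnf4g, Pax2, Pax8, Esrrg, Tfap2b and Gata3, were followed through the segments of the mouse nephron in single-cell RNA sequencing of kidneys from 3 sham mice and 3 DOCA-salt mice. The 7 genes were taken by symbol from the 33696 genes of the deposited matrices, and all 7 were present. DOCA-salt mice were male C57BL/6 animals of 8 to 10 weeks whose left kidney was removed, and which 1 week later received a subcutaneous pellet of 50 mg deoxycorticosterone acetate, a mineralocorticoid, with 1% sodium chloride in the drinking water for 21 days. Sham mice, of the same sex, strain and age, had a sham operation, drank ordinary water and received no pellet. Loss of a kidney, the hormone and the salt load therefore cannot be told apart in this comparison. UMIs, the unique molecular identifiers that mark single captured transcripts, were summed per mouse and segment and are given as CPM, their share of the UMIs in that sum scaled to 1000000.

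HNF4A is a nuclear receptor that drives the differentiated gene program of the proximal tubule, and HNF4G is its close paralog. PAX2 and PAX8 are paired-box factors that establish the renal epithelial lineage and remain active in tubules and collecting ducts. ESRRG, an estrogen-related receptor, controls genes of mitochondrial oxidative metabolism, TFAP2B, of the AP-2 family, is required for the distal nephron, and GATA3 is a zinc-finger factor of the nephric duct and its derivative, the collecting duct.

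Of 76774 deposited barcodes, 60561 had at most 50% mitochondrial UMIs and at most 5% hemoglobin UMIs, and 55630 remained after removal of predicted doublets. These cells formed 32 clusters, and 44118 of them fell in 7 tubule segments named from marker genes: proximal tubule (PT), thin limb (TL), thick ascending limb (TAL), distal convoluted tubule (DCT), connecting tubule (CNT), principal cells (PC) and intercalated cells (IC). The mice contributed 93172739 to 137819127 UMIs each, with a median of 4845 to 9341 UMIs per kept cell. A cluster of 685 cells, of which 624 came from DOCA-salt 2, scored highest for fibroblast markers and next for PT markers, and it was kept out of every segment and added to the PT only as an alternative. In the fibroblast class that holds it, Esrrg was at 673 CPM in DOCA-salt 2 against 69.8 and 81.4 CPM in DOCA-salt 1 and 3, Pax8 at 75.1 against 11.6 and 10.5 CPM, and Hnf4a at 63.6 against 6.02 and 11.6 CPM. Pairs of mice shared 33 to 69 barcode sequences. The sums rested on 17764 sham and 15398 DOCA-salt PT cells, 526 and 284 CNT cells, 721 and 481 PC cells, 696 and 908 DCT cells, and 1013 and 985 IC cells. Fewer cells of a subtype within a segment and less RNA per cell cannot be told apart in such sums.

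In GRCm39 with GENCODE annotation, Tfap2b (ENSMUSG00000025927) lies on the plus strand of chromosome 1 from 19279138 to 19309069, and Esrrg on the same strand of chromosome 1 from 187340988 to 187947082. Hnf4a (ENSMUSG00000017950) spans 163348728 to 163414830 on the plus strand of chromosome 2 and overlaps the noncoding gene Hnf4aos on the opposite strand. Pax8 lies on the minus strand of chromosome 2 from 24309418 to 24365617, and Gata3 on the minus strand of the same chromosome from 9861889 to 9894845. Hnf4g spans 3573084 to 3724860 on the plus strand of chromosome 3, and Pax2 spans 44735057 to 44826703 on the plus strand of chromosome 19.

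Promoter windows are shown for Tfap2b, Pax2 and Pax8, the 3 members with a change in a tubule segment that passed the test in every setting tried. RefSeq promoter windows, 250 bases before to 50 bases after an annotated start, were at hand for 6 of the 7 members in 12 entries from GRCm38.p6, and each entry matched the GRCm39 genome once. Each window is printed 5′ to 3′ on the strand of the gene, with the bases after the start in capitals. The Tfap2b window is chr1:19282028-19282327, inside the annotated gene, the Pax2 window shown is chr19:44743941-44744240, also inside the gene, and the Pax8 window is chr2:24365562-24365861.
Tfap2b: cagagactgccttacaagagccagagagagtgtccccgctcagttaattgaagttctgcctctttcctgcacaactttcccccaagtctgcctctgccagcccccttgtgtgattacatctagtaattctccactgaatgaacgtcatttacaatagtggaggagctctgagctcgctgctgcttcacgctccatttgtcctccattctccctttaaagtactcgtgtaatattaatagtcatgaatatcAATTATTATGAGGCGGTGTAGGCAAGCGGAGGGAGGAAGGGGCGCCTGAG
Pax2: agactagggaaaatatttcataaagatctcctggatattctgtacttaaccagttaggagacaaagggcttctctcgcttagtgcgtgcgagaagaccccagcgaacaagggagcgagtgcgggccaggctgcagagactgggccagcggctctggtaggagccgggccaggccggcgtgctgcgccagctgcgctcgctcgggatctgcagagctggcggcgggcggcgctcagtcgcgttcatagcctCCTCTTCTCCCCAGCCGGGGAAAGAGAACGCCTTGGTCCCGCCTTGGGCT
Pax8: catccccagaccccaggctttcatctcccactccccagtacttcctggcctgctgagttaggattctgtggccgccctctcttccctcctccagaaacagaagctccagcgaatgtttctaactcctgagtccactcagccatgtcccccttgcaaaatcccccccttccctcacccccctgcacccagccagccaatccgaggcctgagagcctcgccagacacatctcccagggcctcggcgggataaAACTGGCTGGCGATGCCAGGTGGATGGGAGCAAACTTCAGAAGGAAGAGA
The AP-2 motif GCCNNNGGC, a palindrome, occurred in 3 of the 12 member windows and in 16.6% of all 32851 windows. The Pax2 window shown held the motif 2 times, starting at -108 and 40 bases from the annotated start. The Pax2 windows not shown, chr19:44734790-44735089 and chr19:44745095-44745394, held it 0 times. On either strand, the GATA letters AGATAA occurred in 1 of the 12 windows and in 11.2% of all, and the steroid hormone receptor half-site AGAACA in 0 of the 12 and in 19.0% of all. The HNF4 letters CAAAGTCCA and the ERR letters TCAAGGTCA occurred in 0 of the 12 windows, against 0.475% and 0.423% of all. These matches describe letters in the windows and not bound sites.

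Each factor had its own distribution along the nephron, and the values below are means over all 6 mice. Hnf4a was a PT gene, at 181 ± 18.8 CPM there and at 9.08 to 12.4 CPM in the other 6 segments, whose ranges overlapped. Of the Hnf4a UMIs in all cells, 94.4% in sham mice and 88.5% in DOCA-salt mice came from the PT. Hnf4g followed it at 83.7 ± 14.1 CPM in the PT and 2.37 to 7.95 CPM elsewhere. Pax2 was highest in the TL, at 396 ± 55.2 CPM, then in PC at 314 ± 39.8 CPM, a pair of segments whose ranges overlapped. Pax8 was also highest in the TL, at 456 ± 59.5 CPM, above PC in every mouse, and lowest in the DCT at 25.0 ± 7.69 CPM.

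The other 3 members were highest in distal segments. Tfap2b was highest in the TAL, at 208 ± 21.7 CPM, then in the CNT at 134 ± 49.4 CPM and the DCT at 118 ± 11.01 CPM, and the CNT range overlapped both of its neighbours. The CNT stood above the DCT in the sham means, at 174 and 119 CPM, and below it in the DOCA-salt means, at 93.9 and 116 CPM. In the PT, Tfap2b was at 1.15 ± 0.558 CPM. Gata3 was highest in PC at 358 ± 71.9 CPM, followed by the CNT at 157 ± 53.3 CPM and IC at 133 ± 29.2 CPM, and it was near 1 CPM in the TL, PT and TAL. Esrrg was found in every segment, with most of its UMIs in the PT (65.0% for sham and 55.2% for DOCA-salt mice). Its level ran from 337 ± 55.0 CPM in the TL to 2344 ± 629 CPM in the CNT and 2262 ± 684 CPM in the DCT, and the last 2 overlapped.

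**Figure D1:**
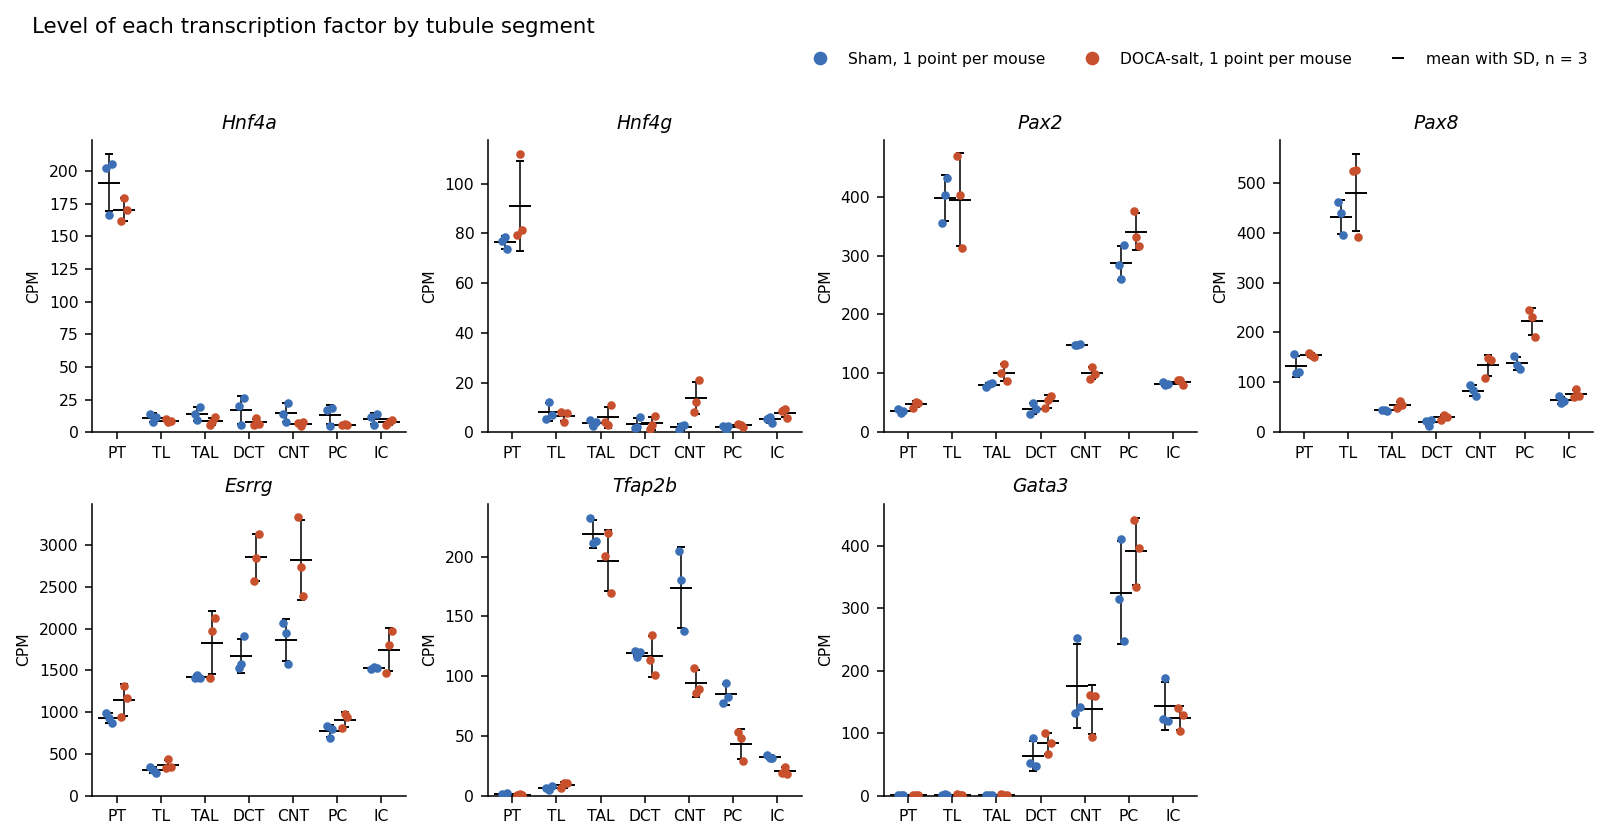
Level of each of the 7 factors in CPM (vertical axis, linear, from 0) by tubule segment (horizontal axis). Each point is 1 mouse, blue for sham and red for DOCA-salt, and bars give the mean and SD of 3 mice. Hnf4a and Hnf4g are highest in the PT, Pax2 and Pax8 are highest in the TL, Tfap2b in the TAL and Gata3 in PC, while Esrrg stands in every segment.

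As a description of likeness, the profile of each member over the 17 named cell classes was correlated with those of 11736 genes. Mean log2(CPM + 1) per class was used, and classes share mice and free RNA. Hnf4a was closest to Glyat (Pearson r = 0.992), Pdzk1 and Guca2b, and Hnf4g to Slc16a9 (0.929), Tmem120a and B3galt5. Pax2 was closest to Emx2 (0.959), Dclk3 and Gm12576, and Pax8 to Myo5b (0.971), Veph1 and Fras1. Esrrg was closest to Rnf208 (0.952), Ppargc1a (0.949) and Dnah7b, and Tfap2b to Lnx1 (0.965), Sostdc1 and Wfdc2. The closest gene to Gata3, 9230102O04Rik (0.801), overlaps Gata3 on the same strand, so reads of the pair may be divided between them, and Tesc (0.766) and Sprr2g (0.756) came next. With a pseudocount of 5 in place of 1, the nearest 3 genes shared 3 of 3 for Pax8, 2 of 3 for Hnf4g, Esrrg, Tfap2b and Gata3, 1 of 3 for Hnf4a and 0 of 3 for Pax2.

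The question of which factors changed with DOCA-salt was asked in each segment by edgeR's quasi-likelihood test over all genes tested there, with Benjamini-Hochberg adjustment and a threshold of 0.05. Fold changes carry a further scaling between mice (TMM), while CPM values and statements on overlap use UMI totals alone. With UMI totals alone, the median log2 fold change of all genes was higher by 0.18 in the CNT and 0.15 in the DCT. CPM values and fold changes therefore differ there, and CPM favours higher levels in DOCA-salt mice. Of 45 tests of a member in a segment, 9 passed, 3 higher and 6 lower in DOCA-salt mice, and 19 had an unadjusted p under 0.05. Tfap2b was lower in the CNT, PC and IC, Pax2 was lower in the CNT, Pax8 was higher in PC, and Esrrg was higher in the DCT. Hnf4g was higher in the CNT, and Hnf4a was lower in the CNT and DCT, in each case at low levels. The CNT held 4 of the 9 calls, with 7 members tested, where 23.8% of all genes tested were called. Of the 4, Hnf4g passed the filter on low counts only through the DOCA-salt mice, and 3 of the other 6 were called. The DCT held 2 of 6 tests (7.67% of all genes), PC 2 of 6 (7.30%) and IC 1 of 7 (6.61%).

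**Figure D2:**
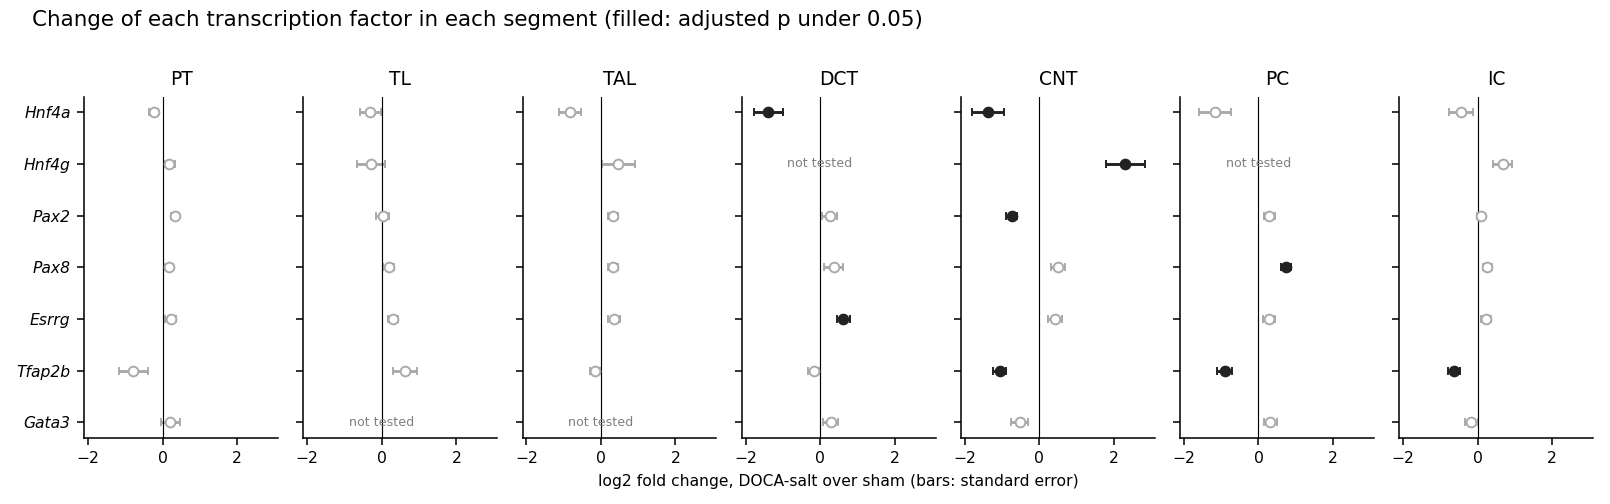
Change of each factor in each segment, as the log2 fold change of DOCA-salt over sham (horizontal axis) with its standard error, 1 panel per segment. Filled points passed an adjusted p of 0.05 and open points did not. Filled points stand only in the DCT, CNT, PC and IC panels, and Tfap2b lies below 0 in the CNT, PC and IC, where it passed.

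Tfap2b fell in the CNT. It stood at 205, 180.0 and 138 CPM in the sham mice and at 107, 85.7 and 89.2 CPM in the DOCA-salt mice, from 774 and 339 UMIs. Every sham mouse was above every DOCA-salt mouse. The means were 174 ± 33.8 and 93.9 ± 11.3 CPM (SD, n = 3), a log2 fold change of -1.06 (SE 0.18, adjusted p = 0.000455).

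In PC, Tfap2b was at 77.2, 94.3 and 82.6 CPM in sham mice and 53.1, 47.9 and 29.1 CPM in DOCA-salt mice, again without overlap, with DOCA-salt 3 lowest. The log2 fold change was -0.91 (SE 0.19, adjusted p = 0.0159). It missed the threshold without Sham 3 (adjusted p = 0.0509) and without DOCA-salt 3 (0.0556). In IC, Tfap2b was less abundant, at 33.8, 31.2 and 31.4 CPM in sham mice against 18.8, 24.1 and 18.2 CPM in DOCA-salt mice. The groups did not overlap, and the log2 fold change was -0.63 (SE 0.15, adjusted p = 0.0293). The IC call was lost without Sham 1 (adjusted p = 0.102), Sham 3 (0.0926), DOCA-salt 1 (0.107) or DOCA-salt 3 (0.152), while its direction held. It was also lost with at most 20% mitochondrial UMIs (adjusted p = 0.304), without doublet removal (0.0623) and with segments set from each cell's own marker UMIs (0.126). Among IC clusters, the pendrin type (IC-B) had 42.5 ± 3.46 CPM in sham and 27.7 ± 4.92 CPM in DOCA-salt mice without overlap (log2 fold change -0.58, adjusted p = 0.0568). The acid-secreting type (IC-A) had 6.59 and 9.83 CPM (adjusted p = 0.587). The IC sums held 386 sham and 495 DOCA-salt cells of IC-A and 627 and 490 of IC-B, and the part of this mix in the IC value was not tested. The IC-B cluster scored 2.88 for IC markers and next, at 1.43, for CNT markers. At clustering resolution 2, a cluster of 337 cells named IC-B scored 2.38 for IC and 2.35 for PC markers. Its leading genes included the CNT markers S100g, Slc8a1 and Trpv5, the IC markers Atp6v1g3, Slc4a9 and Slc26a4, and the PC marker Hsd11b2. Its UMIs per cell were 3.06 times the sample median. The part of such cells in the IC-B value was not tested. No member was called by edgeR in IC-A, with 6 tested and 2.16% of all genes called, or in IC-B, with 7 tested and 8.20% called, and 0 and 2 of these tests had an unadjusted p under 0.05.

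In the TAL, where Tfap2b was most abundant, sham mice had 219 ± 11.9 CPM and DOCA-salt mice 196 ± 25.7 CPM (log2 fold change -0.16, adjusted p = 0.717). In the DCT the means were 119 ± 2.57 and 116 ± 17.1 CPM (log2 fold change -0.18, adjusted p = 0.594). The difference between segments was tested itself, in a fit with the mouse as a block and a spread per gene shared by both segments. The CNT change of Tfap2b lay below that of the TAL by a log2 difference of -0.89 (adjusted p = 8.77e-05) and below that of the DCT by -0.84 (adjusted p = 0.00205). The PC change lay below that of the TAL by -0.73 (adjusted p = 0.00786). The comparisons with the TAL and the DCT were added after the data had been seen. In the planned comparisons, with the PT, where Tfap2b averaged 1.15 CPM, the differences did not pass. They were -0.31 for the CNT (adjusted p = 0.518) and -0.14 for PC (0.892).

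Pax2 also fell in the CNT. The sham mice stood at 148, 147 and 149 CPM, with an SD of 0.912 CPM, and the DOCA-salt mice at 90.6, 111 and 98.4 CPM. The groups did not overlap. The log2 fold change was -0.74 (SE 0.15, adjusted p = 0.00248). In PC, where Pax2 was higher, the means were 287 ± 29.4 and 341 ± 30.7 CPM (log2 fold change 0.29, adjusted p = 0.249). In the PT the sham mice had 38.9, 32.4 and 36.9 CPM and the DOCA-salt mice 41.7, 52.2 and 49.4 CPM, without overlap and without a call (log2 fold change 0.33, adjusted p = 0.107). The CNT change of Pax2 differed from that of the PT by -1.08 on the log2 scale (adjusted p = 9.38e-08), from that of the TAL by -1.08 (1.57e-06) and from that of the DCT by -0.95 (0.00172).

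Pax8, the paralog of Pax2, rose in PC. It was at 153, 136 and 127 CPM in sham mice and 245, 230.3 and 192 CPM in DOCA-salt mice. The highest sham mouse was below the lowest DOCA-salt mouse. The means were 138 ± 13.3 and 222 ± 27.4 CPM, a log2 fold change of 0.73 (SE 0.14, adjusted p = 0.0078).

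In the CNT, Pax8 was at 94.1, 84.4 and 72.2 CPM in sham mice and 109, 148 and 144 CPM in DOCA-salt mice. There was no overlap, and the test fell just short of the threshold (log2 fold change 0.50, SE 0.18, adjusted p = 0.0521). Pax8 in the TL, its highest segment, averaged 432 ± 34.2 and 480 ± 77.0 CPM (adjusted p = 0.73), and in the PT 132 ± 21.6 and 155 ± 3.79 CPM (adjusted p = 0.444). The PC change exceeded that of the PT by a log2 difference of 0.57 (adjusted p = 0.0119), a call lost without DOCA-salt 2 (adjusted p = 0.0733), and that of the TAL by 0.44 (adjusted p = 0.0583). In the TAL, the means of Pax8 were 44.0 ± 0.622 and 55.1 ± 6.42 CPM without overlap (log2 fold change 0.32, adjusted p = 0.302).

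Esrrg rose in the DCT. The sham mice stood at 1532, 1573 and 1906 CPM and the DOCA-salt mice at 2576, 2846 and 3139 CPM. The groups did not overlap. The log2 fold change was 0.62 (SE 0.17, adjusted p = 0.0324), and the call was lost without Sham 1 (adjusted p = 0.138), DOCA-salt 2 (0.077) or DOCA-salt 3 (0.163). Among cells with at most 20% mitochondrial UMIs the log2 fold change was 0.29 (adjusted p = 0.503), and the call was also lost at clustering resolution 2 (adjusted p = 0.069) and with segments set from marker UMIs (0.108).

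In the CNT, Esrrg was at 2066, 1943 and 1579 CPM in sham mice and 3341, 2742 and 2394 CPM in DOCA-salt mice. These did not overlap either, and the test missed the threshold (log2 fold change 0.42, SE 0.18, adjusted p = 0.0995). In the PT the means were 932 ± 59.6 and 1143 ± 189 CPM (adjusted p = 0.391), in the TAL 1423 ± 23.3 and 1833 ± 375 CPM (adjusted p = 0.376), and in IC 1526 ± 14.8 and 1747 ± 254 CPM. The DCT change exceeded that of the PT by a log2 difference of 0.43 (adjusted p = 0.14).

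**Figure D3:**
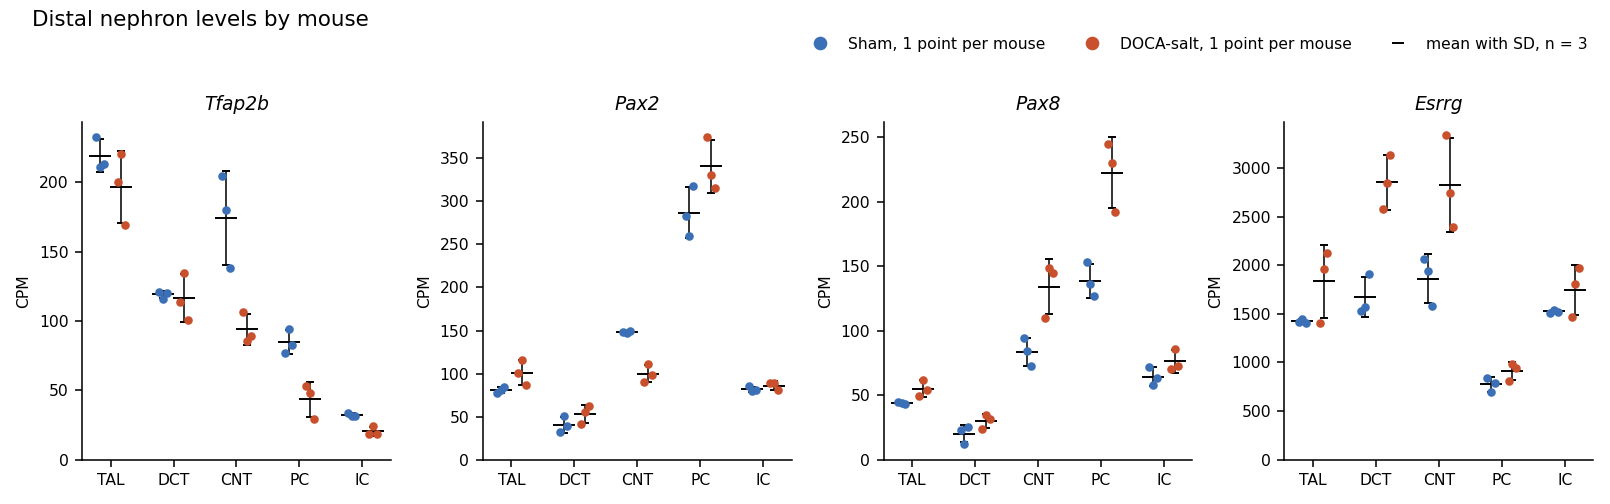
Levels of Tfap2b, Pax2, Pax8 and Esrrg in CPM (vertical axis, linear, from 0) in the TAL, DCT, CNT, PC and IC (horizontal axis). Each point is 1 mouse, blue for sham and red for DOCA-salt, with the mean and SD of 3 mice. The 2 colours separate for Tfap2b in the CNT, PC and IC, for Pax2 in the TAL and CNT, for Pax8 in the TAL, CNT and PC, and for Esrrg in the DCT and CNT.

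Gata3 was not called in any of the segments where it was tested. In PC, its main segment, it averaged 325 ± 82.0 CPM in sham and 391 ± 54.2 CPM in DOCA-salt mice (log2 fold change 0.32, adjusted p = 0.337), with overlap. In the CNT the sham mice had 132, 253 and 141 CPM and the DOCA-salt mice 162, 93.3 and 159 CPM (log2 fold change -0.53, SE 0.24, adjusted p = 0.124), and the groups overlapped. The CNT change lay below that of the DCT by a log2 difference of -0.77 (adjusted p = 0.00289). In the T or NK cell class, which uses GATA3 as a lymphocyte factor, the means were 123 and 219 CPM.

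Between the PT and the other segments, 4 of 7 members were called for a different change in the CNT, where 15.9% of all genes were. The counts were 1 of 7 for the TL (5.44% of all genes), 1 of 7 for the DCT (9.02%) and 1 of 7 for PC (6.71%). For the TAL (4.27% of all genes) and IC (8.13%), 0 of 7 were called by edgeR, and 2 and 1 had an unadjusted p under 0.05. Between the CNT and the TAL, 3 of 7 were called, against 19.7% of all genes, between the CNT and the DCT 4 of 7, against 11.1%, and between PC and the TAL 1 of 7, against 7.37%. These counts include Hnf4g and Hnf4a, whose CNT levels were low. Without both, 2 of 5 were called between the CNT and the PT, 2 of 5 between the CNT and the TAL and 3 of 5 between the CNT and the DCT.

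The changes of Tfap2b, Pax2, Pax8 and Esrrg were also counted as shares of cells with a UMI, with each cell thinned to 1000 UMIs. In the CNT, the share of cells with a Tfap2b UMI was 15.1% ± 2.99 in sham and 8.83% ± 2.07 in DOCA-salt mice, and with a Pax2 UMI 13.4% ± 0.863 and 8.84% ± 0.457. In PC, the share with a Pax8 UMI was 12.3% ± 0.961 and 19.7% ± 2.67, and in the DCT the share with an Esrrg UMI was 65.6% ± 2.66 and 73.6% ± 1.10. Each of these 4 gave an exact two-sided permutation p of 0.1, the smallest that 3 against 3 mice allow. The 4 were chosen because edgeR had called the same UMIs, so they are no independent support. Uncalled cases reached the same p, for Pax2, Pax8 and Esrrg in the TAL, Pax2 in PC, and Pax8 and Esrrg in the CNT. So did Hnf4g and Tfap2b in the TL.

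Thinning left out 22 sham and 20 DOCA-salt cells in the CNT, 29 and 37 in PC, and 93 and 90 in the DCT. In the macrophage class, which should lack these factors, the thinned shares in sham and DOCA-salt mice were 0.137% and 0.181% for Tfap2b, 0.607% and 0.504% for Pax2, 0.620% and 0.717% for Pax8, and 4.75% and 5.32% for Esrrg. Median depths were 8810 and 11892 UMIs in the CNT, 8981 and 12734 in PC, 4279 and 9154 in the DCT, and 3863 and 4587 in macrophages. Without thinning, the shares were 62.1% and 51.0% for Tfap2b and 57.0% and 49.2% for Pax2 in the CNT, 60.0% and 76.3% for Pax8 in PC, and 80.5% and 84.6% for Esrrg in the DCT, with exact permutation p-values of 0.3, 0.3, 0.1 and 0.1.

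Other markers moved within the same sums. In the CNT, the summed level of 8 PC markers fell from 6772 ± 968 to 2170.2 ± 177 CPM, with 7 of 7 tested lower, among them the water channel Aqp2 (log2 fold change -2.61, adjusted p = 6.68e-08). Summed DCT markers were at 1420 ± 222 CPM in sham and 2310 ± 292 CPM in DOCA-salt mice, with 2 of 5 higher, the NaCl cotransporter Slc12a3 (2.01, adjusted p = 0.0061) and the magnesium channel Trpm6 (2.33). The CNT markers themselves were at 51858 ± 7333 and 31675 ± 2377 CPM, with 4 of 6 lower and 1, the sodium-calcium exchanger Slc8a1, higher. Parietal epithelium markers in the CNT were at 101 and 337 CPM, with 3 of 4 higher and 1 of 5 genes at 0, and TL markers at 199 and 493 CPM, without overlap and with 2 of 5 higher. Mitochondrial UMIs made up 22.9% and 17.3% of the CNT sums and 34.0% and 26.1% of the DCT sums, without overlap. In the DCT, its own markers were at 12608 ± 874 CPM in sham and 9020.0 ± 455 CPM in DOCA-salt mice, without overlap and with 4 of 6 lower. There, 3 of 6 TAL markers and 2 of 6 CNT markers were also lower, and 2 of 6 TL markers and 2 of 2 parietal epithelium markers higher. In the same DCT sums, 2 of 5 PC markers were lower, and 3 of 7 IC markers were lower and 1 higher. Of macrophage markers 2 of 4 were higher there, and of endothelial markers 1 of 2. TAL markers in the CNT were at 695 and 362 CPM, without overlap and with 4 of 5 lower. In PC, its own markers were at 19984 ± 715 CPM in sham and 17501 ± 961 CPM in DOCA-salt mice, without overlap and with 2 of 8 lower and 1 higher. Mitochondrial shares there of 12.0% and 10.6% overlapped, 2 of 5 DCT markers were higher, and CNT markers were at 1229 and 2254 CPM, with 3 of 6 higher and 1 lower. Parietal epithelium markers in PC were at 185 and 308 CPM, without overlap and with 3 of 4 higher, TL markers at 1162 and 1732 CPM, with overlap and 2 of 5 higher, and 3 of 3 macrophage markers were higher. In IC, PC markers were at 1230 and 691 CPM, with 2 of 8 lower and 1 higher, TAL markers at 685 and 418 CPM, with 3 of 6 lower, and the IC markers themselves at 9797 and 8700 CPM, with 2 of 10 lower, each without overlap. Mitochondrial UMIs in IC were at 23.3% and 26.7%. Of markers of other classes in IC, 4 of 5 for macrophages, 3 of 3 for fibroblasts and 1 of 4 for parietal epithelium were higher. The part of these shifts in the values of Tfap2b, Pax2, Pax8 and Esrrg was not tested.

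Hnf4a in its own segment was not called. In the PT it stood at 202, 166 and 205 CPM in sham mice and 161, 179 and 170 CPM in DOCA-salt mice, so that Sham 2 lay among the DOCA-salt mice. The log2 fold change was -0.24 (SE 0.12, adjusted p = 0.243). An interval of 2 SE ran from -0.47 to -0.01, while the unadjusted p of the same edgeR test was 0.0685. The p that missed the threshold does not show that Hnf4a did not change.

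Hnf4g in the PT was at 76.9, 78.6 and 73.7 CPM in sham mice and 79.5, 112 and 81.5 CPM in DOCA-salt mice. The groups were separated narrowly, with DOCA-salt 2 well above the rest, and the test did not pass (log2 fold change 0.18, SE 0.14, adjusted p = 0.471). Of the 7 members, 0 were called by edgeR in the PT, where 7.56% of all genes were, and 1 of the 7, Pax2, had an unadjusted p under 0.05. In the TL 0 of 6 were called (0.627% of all genes) and 0 had an unadjusted p under 0.05, and in the TAL 0 of 6 were called (1.62%) and 4 had one. DESeq2 called 0 members in these 3 segments.

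The PT was also divided by marker genes into S1 and a pooled S2 and S3 part. In S2 and S3, Hnf4g was at 84.8, 95.4 and 90.03 CPM in sham mice and 99.4, 156 and 116 CPM in DOCA-salt mice, without overlap (log2 fold change 0.41, SE 0.15, adjusted p = 0.134). In S1 the means were 66.7 and 63.6 CPM (log2 fold change -0.12, adjusted p = 0.748). The change in S2 and S3 exceeded that in S1 by a log2 difference of 0.52 for Hnf4g (adjusted p = 0.00265) and 0.37 for Pax8 (adjusted p = 0.0128), 2 of 7 members, against 9.31% of all genes. Within S1 alone, 0 of 7 members were called (4.51% of all genes), and within S2 and S3 0 of 7 (9.06%), with 0 and 3 at an unadjusted p under 0.05. A PT cluster of low UMI content, 7166 cells that were part of the PT sums, had Hnf4a at 171 and 149 CPM but Hnf4g at 9.23 and 10.1 CPM in sham and DOCA-salt mice.

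Havcr1, which encodes the injury protein KIM-1, rose in the PT of DOCA-salt mice, from 0.299 to 0.510 CPM in the sham mice to 4.20 to 6.41 CPM in the DOCA-salt mice. Within each mouse, the 360 PT cells with at least 1 Havcr1 UMI were compared with the other PT cells. The sham mice gave 16, 10 and 12 of the cells with Havcr1 and the DOCA-salt mice 104, 82 and 136. Depth was not matched between these cells and the others, which included cells of the low-UMI cluster. With all 7 members tested, 0 were called, against 6.17% of all genes, and 1, Hnf4g, had an unadjusted p under 0.05. Hnf4g was lower by a log2 value of -0.34 (SE 0.11, adjusted p = 0.0652) in the cells with Havcr1, Hnf4a by -0.16 (adjusted p = 0.486), and Pax2 by -0.01 (adjusted p = 0.993). In the same cells, 6 of 15 other injury and repair genes tested were called higher and 0 lower. The largest differences were those of complement C3 (log2 difference 2.78), the adhesion molecule Vcam1 (2.71) and ceruloplasmin Cp (2.57). With at least 2 Havcr1 UMIs, which left only the 3 DOCA-salt mice, Hnf4g was called (-0.54, adjusted p = 0.00394), 1 of 7 members against 12.4% of all genes.

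At low levels outside the PT, 3 calls concerned the HNF4 pair. In the CNT, Hnf4g was at 0.741, 2.66 and 3.03 CPM in sham mice and 8.06, 12.2 and 21.0 CPM in DOCA-salt mice, from 10 and 44 UMIs in all. The fitted log2 fold change was 2.31 (SE 0.53, adjusted p = 0.00501). Hnf4g entered this test only through the DOCA-salt mice, since 0 of 3 sham and 3 of 3 DOCA-salt mice reached the filter's cutoff of 7.05 CPM, so the test is no independent support for a difference. Over 6 classes outside the tubule that should lack it, mean Hnf4g ran from 3.09 to 19.8 CPM in sham and from 0 to 13.7 CPM in DOCA-salt mice, against CNT means of 2.14 and 13.8 CPM. The DOCA-salt maximum was that of fibroblasts, where DOCA-salt 2, with the cluster mostly of its own cells, had 31.1 CPM and the other 2 mice 7.22 and 2.75 CPM, and the other 5 classes ran from 0 to 3.72 CPM. When cells were assigned by their own marker UMIs instead of clusters, the log2 fold change was 1.05 (adjusted p = 0.304).

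Hnf4a in the CNT was at 14.1, 7.97 and 22.5 CPM in sham mice and 7.38, 4.59 and 7.87 CPM in DOCA-salt mice, from 68 and 23 UMIs. Here Sham 2 was barely above the highest DOCA-salt mouse (log2 fold change -1.38, SE 0.43, adjusted p = 0.0305). In the DCT the sham mice had 19.9, 5.58 and 26.1 CPM and the DOCA-salt mice 5.65, 10.7 and 6.45 CPM, which overlapped (log2 fold change -1.39, SE 0.39, adjusted p = 0.0375). Over the same 6 classes, mean Hnf4a ran from 15.2 to 56.1 CPM in sham and from 8.77 to 38.1 CPM in DOCA-salt mice, with macrophages at 30.0 ± 13.4 and 10.5 ± 3.43 CPM. The CNT means of 14.8 and 6.62 CPM lay below these ranges, and the DCT means of 17.2 and 7.61 CPM within and below them, so neither can be told apart from background. Summed PT markers fell likewise, from 897 to 484 CPM in the CNT, where 5 of 7 tested were lower, and from 1020 to 534 CPM in the DCT, where 6 of 8 were lower. Leaving out single mice ended the CNT call of Hnf4a in 5 of 6 cases, all but Sham 2, with an adjusted p of up to 0.206, and the DCT call in 4 of 6, all but Sham 2 and DOCA-salt 2, with one of up to 0.374. With segments set from marker UMIs the log2 fold changes were -0.46 in the CNT (adjusted p = 0.663) and -0.50 in the DCT (0.195).

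**Figure D4:**
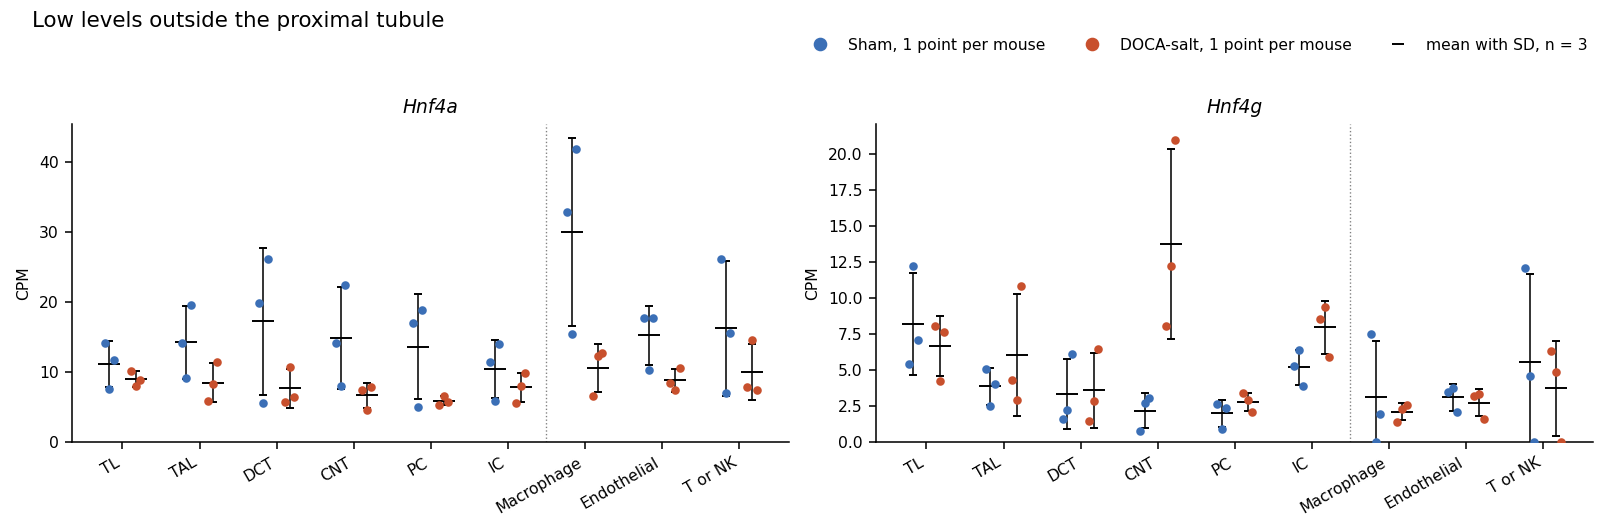
Hnf4a and Hnf4g in CPM (vertical axis, linear, from 0) in the 6 segments outside the PT and, right of the dotted line, in macrophages, endothelial cells and T or NK cells. Each point is 1 mouse, blue for sham and red for DOCA-salt, with the mean and SD of 3 mice. Hnf4a in the CNT and DCT lies at or below the macrophage level of the same group, and Hnf4g in the CNT of DOCA-salt mice lies at 13.8 ± 6.60 CPM.

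Outside the 7 segments, a cluster of 859 cells named parietal epithelium-like, after the flat cells that line Bowman's capsule, was examined after its values had been seen. It held 310 sham and 549 DOCA-salt cells. The sums held 994433 to 1270496 UMIs from 83 to 120 cells per sham mouse. In DOCA-salt mice they held 3441767 to 4823834 UMIs from 154 to 205 cells. Its leading genes were Cp, Ncam1, C3, Wt1, Akap12, Stc2, Cdh6, Sox9, Cldn1 and Gxylt2. Of these, Ncam1, Akap12 and Cldn1 are parietal markers, and Cp, C3 and Cdh6 are on the list of injury and repair genes. The part of injured cells or of depth in the values was not tested. Hnf4a was at 41.2, 16.5 and 35.4 CPM in sham mice and 75.8, 93.1 and 81.6 CPM in DOCA-salt mice, without overlap (log2 fold change 1.502, SE 0.24, adjusted p = 0.00131). Hnf4g was at 16.1, 14.96 and 24.2 CPM against 37.8, 40.8 and 35.3 CPM (log2 fold change 1.09, SE 0.21, adjusted p = 0.00385). Esrrg was at 427, 424 and 692 CPM against 1194, 1290 and 1242 CPM (log2 fold change 1.32, SE 0.20, adjusted p = 0.000762). In all 3 cases every DOCA-salt mouse was above every sham mouse. Pax2 averaged 114 and 102 CPM (adjusted p = 0.615) and Pax8 227 and 251 CPM (adjusted p = 0.366). Thus 3 of 5 members tested were called, where 20.4% of all genes were.

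Compared with the PT, the change in this cluster was greater by a log2 difference of 1.80 for Hnf4a, 0.96 for Hnf4g and 1.19 for Esrrg, 3 of 7 members called against 21.0% of all genes. PT markers summed to 1325 ± 399 CPM in sham and 3461 ± 363 CPM in DOCA-salt mice, with 8 of 8 higher (median log2 fold change 1.48). Its parietal markers were at 2229 ± 371 and 1354 ± 50.8 CPM, with 3 of 5 lower. In this cluster, 9.86% of all genes were called higher and 10.6% lower, and the list counts that follow stand against these shares. Of 14 tested genes of the differentiated proximal tubule, 12 were higher and 0 lower (median 1.29, against -0.00197 over all genes). Of 16 injury and repair genes, 6 were higher and 4 lower (median 0.11), with Havcr1 (6.28) and Lcn2 (2.84) higher and Fgb (-1.41) and Krt7 (-1.20) lower. Of 35 other transcription factors, 5 were higher and 8 lower, with Pou3f3 (3.08) higher and Osr2 (-1.67) and Wt1 (-1.35), a factor of parietal cells and podocytes, lower. The part of PT cells or PT transcripts in the values of this cluster was not tested.

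**Figure D5:**
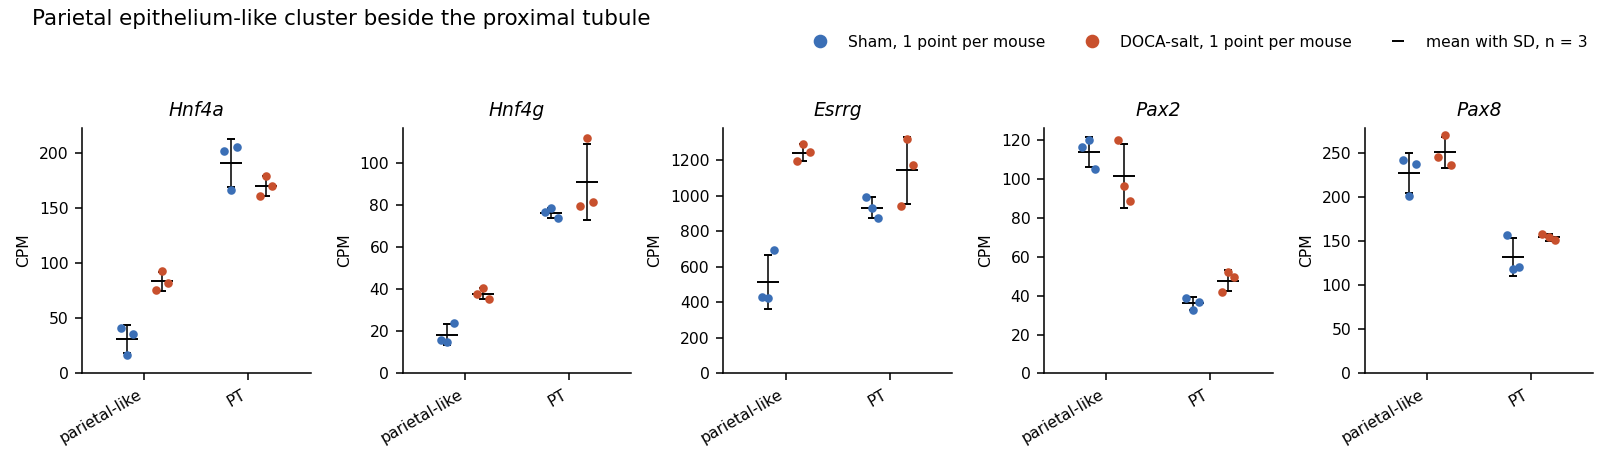
Hnf4a, Hnf4g, Esrrg, Pax2 and Pax8 in CPM (vertical axis, linear, from 0) in the parietal epithelium-like cluster and the PT. Each point is 1 mouse, blue for sham and red for DOCA-salt, with the mean and SD of 3 mice. Hnf4a, Hnf4g and Esrrg separate between the groups in the cluster, where DOCA-salt mice have 83.5 ± 8.78, 38.0 ± 2.76 and 1242 ± 47.8 CPM.

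Among 46 other nephron transcription factors and cofactors, the CNT again held most calls, 3 higher and 17 lower of 34 tested (median log2 fold change -0.60, against -0.01 over all genes, of which 11.8% were called higher and 11.9% lower). The progenitor and injury factors Sox9 (5.57) and Sox4 (2.36) rose there. The mitochondrial coactivator Ppargc1a (-1.57), the mineralocorticoid receptor Nr3c2 (-1.39), the bile acid receptor Nr1h4 (-1.37) and Sim1 (-1.12) fell. In the DCT 7 of 35 were higher and 3 lower, against 4.65% and 3.02% of all genes, among them Sox9 (2.35) and Klf6 (1.45). In PC 3 of 34 were higher and 3 lower, against 4.10% and 3.20% of all genes, among them Sox9 (1.64), Ppargc1a (-0.91) and Nr3c2 (-0.55). In IC 2 of 40 were higher and 5 lower, against 3.37% and 3.24% of all genes, with Sox9 (2.54) and Emx1 (-0.73). In the PT 3 of 45 were higher and 2 lower, against 5.14% and 2.42% of all genes, Sox9 (4.60), Sox4 (1.51), Elf3 (0.75), Osr2 (-0.90) and Irx3 (-0.56). In the TAL 1 of 40 was higher, Prox1 (0.74), and 1 lower, against 0.765% and 0.855% of all genes, and in the TL 0 of 37 were called by edgeR, with 12 at an unadjusted p under 0.05.

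Genes known downstream of the members were counted in the same way. Of the oxidative genes known as estrogen-related receptor targets, 8 of 14 were lower and 0 higher in the CNT (median -0.56), where 11.9% of all genes were lower, among them the pyruvate dehydrogenase kinase Pdk4 (-1.54) and the fatty acid enzyme Acadm (-0.97). In the DCT 0 of 15 were higher and 1 lower, against 4.65% and 3.02% of all genes, and in the PT 1 of 15, Pdk4 (1.04), was higher, where 5.14% of all genes were. In the parietal epithelium-like cluster, where Esrrg was called higher, 6 of 14 were higher and 0 lower (median 0.41). All genes there were called higher in 9.86% and lower in 10.6%. Of 15 genes of the differentiated PT, several of them dependent on HNF4A, 2 were higher in the PT, Ehhadh (1.01) and the gluconeogenic Pck1 (0.84), and 1 was lower, the urea cycle gene Ass1 (-0.81), against 5.14% and 2.42% of all genes. Of genes tied to PAX2, PAX8 or GATA3, the signalling ligand Wnt4 rose in the CNT (3.78) and DCT (4.81), while the cadherin Cdh16 (-0.52) and Bcl2 (-0.44) fell in the CNT. That is 1 higher and 2 lower of 4 tested in the CNT, against 11.8% and 11.9% of all genes, and 1 of 5 higher in the DCT, against 4.65%. In PC 0 of 5 and in the PT 0 of 6 were called by edgeR, with 2 and 1 at an unadjusted p under 0.05. In the parietal epithelium-like cluster 0 of 5 were higher and 3 lower (median -0.93), against 9.86% and 10.6% of all genes. Of 16 injury and repair genes, 10 were higher and 0 lower in the PT (median 1.93), where 5.14% of all genes were higher, and 8 of 11 were higher in the CNT (median 1.30), where 11.8% were. In the same PT sums, 6 of 8 macrophage, 5 of 6 fibroblast, 4 of 8 endothelial and 3 of 5 parietal epithelium markers were higher. The part of such transcripts in the PT values was not tested.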

How the data were processed

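Gene-by-barcode UMI count matrices of 6 mice, 3 per group by their labels, were used as deposited, and their unit is raw UMI counts. Per the submitters' processing notes, the authors made them with Cell Ranger 9.0.0 (the file headers name 8.0.1) on GRCm39 and used Seurat 4.0.0 in R 4.0.3. The annotation release is not given in the sources used here, and how reads of overlapping genes were assigned is not either. No batch or day of dissociation is given in the sources used here.

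Barcodes with over 50% mitochondrial or 5% hemoglobin UMIs were left out, and the minimums of 170 genes and 500 UMIs removed none. Barcodes were scored by Scrublet (scanpy 1.11.5, Python 3.11.15), and the 4931 with the highest scores were removed as doublets. Their number per mouse was preset at a rate of 0.8% per 1000 barcodes. Scrublet's own threshold marked 0 to 122 barcodes per mouse. Cells were clustered on 30 components of 2000 variable genes that held none of the members or listed genes (15 neighbours, Leiden resolution 1, leidenalg 0.10.2), and clusters were named from fixed markers, with at least 3 detected.

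Counts per mouse and segment were tested in R 4.3.3 with edgeR 4.0.16 (filterByExpr, TMM, quasi-likelihood, Benjamini-Hochberg over all genes tested). The standard error is the log2 fold change divided by the square root of F. Differences between segments, and cells with against without Havcr1, were tested with the mouse as a block. Each such fit gave a gene the same dispersion in both sums, so a difference in spread between segments was not modelled. The standard error of the Hnf4a change was 0.43 in the CNT alone and 0.34 for the CNT minus PT difference. Precision is set by 3 mice per group. The p-values weigh the group difference against the spread between mice, which edgeR moderates over all genes, and are then adjusted. The edgeR steps were tested on simulated data. DESeq2 1.42.0, other scalings, filters, cell limits, clusterings and left-out mice were the alternatives. All 7 members are named throughout, and from each list at most 6 called genes per segment by size of change. The result of 1 listed gene is not reported here. The members and lists were chosen with earlier results of these data known, and differences between other pairs of segments than those with the PT, the pooled S2 and S3 part and the parietal epithelium-like cluster were added after seeing the data. The GENCODE annotation and RefSeq promoter tables were matched by symbol or gene identifier.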

Additional observations from a re-analysis of the deposited data

Results flagged for a closer look

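The DOCA-salt changes of members differed between segments by the test of the difference itself in 20 cases, each given as the log2 change in the first segment minus that in the second. Only comparisons of another tubule segment with the PT were planned, and the rest were added after the data had been seen. These fits gave each gene a spread shared by both segments, so a wider spread in the smaller sums was not modelled. For Tfap2b the differences were CNT minus TAL at -0.89, CNT minus DCT at -0.84, PC minus TAL at -0.73 and TL minus PT at 1.34. The first 3 were called without each of the 6 mice in turn, and the last in 1 of the 6 (adjusted p = 0.047 with all mice). That last one rests on means of 7.62 CPM in the TL and 1.15 CPM in the PT, where classes outside the tubule ran from 1.33 to 5.51 CPM in sham and from 0 to 5.80 CPM in DOCA-salt mice.

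For Pax2, CNT minus PT was -1.08, CNT minus TAL was -1.08 and CNT minus DCT was -0.95, all called without each mouse in turn. For Pax8, PC minus PT was 0.57, called in 5 of 6, and S2 and S3 minus S1 was 0.37, called in 3 of 6. For Gata3, CNT minus PT was -0.69, called in 3 of 6 and resting on means of 1.06 and 1.28 CPM in the PT, below those of macrophages (3.41 and 1.38 CPM), and CNT minus DCT was -0.77, called in 6 of 6.

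For Hnf4a, DCT minus PT was -1.13 and CNT minus PT was -1.14, each called in 4 of 6 and each at levels in the distal segment that cannot be told apart from background. For Hnf4g, CNT minus PT was 2.13 and S2 and S3 minus S1 was 0.52, both called in 6 of 6, and CNT minus TAL was 1.90 and CNT minus DCT was 2.66, both called in 4 of 6. The 3 differences with the CNT rest on 10 sham and 44 DOCA-salt UMIs of Hnf4g there. In the filter for the CNT alone, it reached the cutoff in the DOCA-salt mice only. The filter for each difference was set over both segments, and in the PT Hnf4g was at 73.7 to 112 CPM. The 3 calls use the same few CNT UMIs as the CNT call, so they are no independent support.

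In the parietal epithelium-like cluster, the change minus that in the PT was 1.19 for Esrrg, 1.80 for Hnf4a and 0.96 for Hnf4g, and each was called without each mouse in turn.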

How the results depend on the processing

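Of the 9 calls, 3 held in every setting tried, Tfap2b and Pax2 in the CNT and Pax8 in PC, and 0 of the 9 changed sign. Clustering at resolution 2 gave the same cells in the CNT, so this setting could not alter the calls there. Over the settings without 1 mouse, 2 to 5 members were called higher and 2 to 9 lower. The 3 higher calls became 5 with scaling to library size only, 1 with at most 20% mitochondrial UMIs and 5 with segments set from each cell's own marker UMIs, and the 6 lower calls became 3 under both of the latter. Of the 9 calls, 4 were kept with at most 20% mitochondrial UMIs, where 3 could not be tested, and 4 with marker UMIs, where Pax8 in PC was the higher call kept. Hnf4a lost its CNT call with DESeq2 (adjusted p = 0.0598). Deviations of same-numbered mice from their group means correlated at -0.417 to 0.0129, and no mouse was closest to its own number. With 3 mice a group, these correlations cannot tell whether same-numbered mice shared a batch. Replicate 3 had the lowest median UMIs per kept cell of both groups, 4845 in Sham 3 and 5912 in DOCA-salt 3. A fit with the replicate number as a block called 2 higher and 4 lower. It lost Esrrg in the DCT (adjusted p = 0.0828), Tfap2b in IC (0.126) and Hnf4a in the DCT (0.157). Scaling to library size only moved the median of all genes by 0.18 in the CNT and 0.15 in the DCT.

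Of the 36 uncalled tests, 11 were called in some setting. These were Pax8 (4 of 15 settings), Esrrg (2) and Gata3 (1) in the CNT, Hnf4a in the TAL and PC (2 each), Gata3 in the DCT and PC and Tfap2b in the PT (1 each, all 3 without Sham 2), and Hnf4a, Hnf4g and Esrrg in the TL (1 each, with marker UMIs). Signs changed in tests that had not been called, as follows. With at most 20% mitochondrial UMIs the log2 changes were -0.0596 for Gata3 in the PT, -0.11 for Pax2 and -0.0672 for Esrrg in the TAL, -0.17 for Pax2 and 0.0199 for Tfap2b in the DCT, and -0.13 for Pax2 in IC. With marker UMIs they were 1.34 for Hnf4a and 1.10 for Hnf4g in the TL, both then called (adjusted p = 0.011 and 0.009), -0.20 for Pax2 in the TL, and 0.18 for Hnf4a in IC. Pax2 in the TL was at -0.0045 with library size only and -0.0051 without doublet removal. Tfap2b in the PT was at 0.23 with the cluster mostly of 1 mouse included, and Hnf4a in cells with 2 or more Havcr1 UMIs was at 0.0122. Without 1 mouse, Hnf4g ran from -0.55 to 0.0765 in the TL and -0.15 to 0.81 in the TAL, Pax2 from -0.12 to 0.17 in the TL, Gata3 from -0.28 to 0.0526 in IC, and Pax8 from -0.13 to 0.0515 in S1. Causes were not tested. Over all settings, the genes called numbered 281 to 2790 in the PT (1226 as reported), 10 to 671 in the TL (73), 52 to 732 in the TAL (197), 407 to 1177 in the DCT (772), 717 to 2887 in the CNT (2327), 331 to 1393 in PC (782) and 271 to 1481 in IC (775). With 3 mice a group, and 10 to 68 UMIs in the sham sums of the HNF4 pair in the CNT, such low levels limit what can be told.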
